A study of Mus musculus with 7 samples.

Results

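Transcripts of 8 genes of the voltage-gated sodium channel family were measured in mouse left atria: the pore-forming subunit genes Scn10a, Scn4a and Scn7a, the beta subunit genes Scn2b, Scn3b and Scn4b, and Fgf12 and Fgf13, whose protein products bind the channels. They were chosen by name out of 24421 genes in the count table, and all 8 were among the 13295 genes that passed the filter on low counts. RNA sequencing covered 7 left atrial libraries from adult mice of the outbred strain CD1. Of these, 4 came from mice overexpressing FOG2, the product of Zfpm2 and a cofactor of GATA transcription factors, and 3 from wild type mice. All animals had been kept for 1 week without doxycycline, and the labels use DTG and NTG for them without explaining the terms. The sources used here do not name the promoter that drives the transgene or the cells it is active in. Nor do they say that the libraries of a group came from different animals, and the p-values therefore reflect library-to-library spread, part of which may be technical.

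Voltage-gated sodium channels open on depolarization and carry the fast inward current that starts the action potential of working heart muscle. A large pore-forming alpha subunit conducts the ions, beta subunits with an immunoglobulin-like outer domain change its gating, trafficking and adhesion, and the fibroblast growth factor homologous factors, which are not secreted, bind its cytoplasmic tail and set how it inactivates. In the atrium, the current of these channels sets how fast an impulse spreads.

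Gene counts summed to 5562520 to 8655655 per library, and a single count stood for 0.111 to 0.174 CPM, the count divided by the library's gene total after TMM scaling and expressed per 1e6 counts. Overexpression replicate 1 stood apart from the other libraries of its group, with correlations across genes of 0.947 to 0.949, against 0.977 to 0.983 for the other pairs of libraries within a group. Zfpm2 was higher in every overexpression library, at 139.9 to 261 CPM against 29.4 to 31.7 CPM in wild type. Overexpression replicate 1 held the 139.9 CPM, and the other overexpression libraries held 222 to 261 CPM. The tissue label was checked against cardiac muscle markers: Myl7, the atrial regulatory myosin light chain, was at 8471 ± 494 CPM (SD, n = 3) in wild type against 2092 ± 960.1 CPM (SD, n = 4) in overexpression. Myl4, the atrial essential light chain, was at 9394 ± 747 CPM against 8319.9 ± 621 CPM.

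The members lie on 5 chromosomes, and 4 of them on chromosome 9 (mm10, GENCODE M21). Scn2b occupies chr9:45117782-45130070 and Scn4b chr9:45138395-45154152, both on the plus strand, with 8324 bases between them. Scn3b lies at chr9:40269217-40291618 on the plus strand and Scn10a at chr9:119608456-119719322 on the minus strand. Scn4a lies at chr11:106318592-106353288, Scn7a at chr2:66673425-66784914, Fgf12 at chr16:28160098-28753068 and Fgf13 at chrX:59062145-59568071, all on the minus strand. The noncoding gene Gm10684 overlaps Scn2b on the opposite strand and has its own row in the table, so reads of the pair could not be told apart where the genes overlap if the counting ignored strand.

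Promoter windows, the 250 bases before a RefSeq transcript start in GRCm38.p6, were given for 7 members, all but Scn3b, and came to 13 windows. Fgf12 and Fgf13 have 4 RefSeq starts each, and counts per gene do not separate their transcripts. Start 1 of each gene lies beyond the GENCODE gene end given above. The annotation used for counting is not given, so whether reads from there were counted is not known. The sequences that follow are the windows of Fgf12 and Fgf13 that hold no annotated exon. They are shown because both genes were called lower and because the starts of Fgf13 differ in base composition. Capitals mark CG dinucleotides, and each sequence reads 5′ to 3′ on the minus strand.
Fgf12 start 1, chr16:28753244-28753493: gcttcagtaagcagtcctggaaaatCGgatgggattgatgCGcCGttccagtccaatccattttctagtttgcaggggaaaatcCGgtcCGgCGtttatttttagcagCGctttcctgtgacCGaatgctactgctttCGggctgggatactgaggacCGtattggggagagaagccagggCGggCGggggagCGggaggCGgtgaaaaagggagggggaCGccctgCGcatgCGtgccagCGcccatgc
Fgf12 start 2, chr16:28564952-28565201: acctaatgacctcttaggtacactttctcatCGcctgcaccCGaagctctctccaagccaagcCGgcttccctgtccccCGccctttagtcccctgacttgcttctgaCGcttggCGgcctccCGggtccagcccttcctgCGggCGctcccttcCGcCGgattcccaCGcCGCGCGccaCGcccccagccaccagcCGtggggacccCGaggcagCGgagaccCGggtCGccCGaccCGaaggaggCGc
Fgf13 start 1, chrX:59585573-59585822: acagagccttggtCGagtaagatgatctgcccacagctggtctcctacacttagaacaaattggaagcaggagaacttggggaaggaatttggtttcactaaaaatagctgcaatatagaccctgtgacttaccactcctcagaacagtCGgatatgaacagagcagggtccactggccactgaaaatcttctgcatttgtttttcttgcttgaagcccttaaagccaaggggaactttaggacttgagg
Fgf13 start 4, chrX:59134437-59134686: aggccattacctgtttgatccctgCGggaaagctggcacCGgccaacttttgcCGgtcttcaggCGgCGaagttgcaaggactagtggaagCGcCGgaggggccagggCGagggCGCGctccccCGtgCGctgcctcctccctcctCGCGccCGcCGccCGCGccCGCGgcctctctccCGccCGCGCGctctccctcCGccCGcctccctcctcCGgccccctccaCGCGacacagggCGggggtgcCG

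The windows of Fgf12 held 18, 24, 25 and 20 CG dinucleotides at starts 1 to 4, and those of Fgf13 held 2, 33, 6 and 31. The median was 6 over all 32851 RefSeq windows of the same length. The neighbours on chromosome 9 differed in the same measure. The Scn4b window had 23 CG dinucleotides and 66.0% G and C, while that of Scn2b had 1 and 38.4%, with a median G and C content of 52.4% over all windows. The Scn10a window had 8 and 49.6%. Of the Scn10a and Scn4b windows, 250 and 229 bases lie in exons of the GENCODE annotation, so they are not printed.

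The series concerns GATA4 and TBX5, so the windows were searched for the GATA letters AGATAA or else AGATAG, and further TGATAA or else TGATAG, and for the T-box letters AGGTGT, on both strands, with no overlap between the motifs. Of all 32851 windows, 26.5% held one of the GATA words and 11.8% the T-box word. Among the 13 member windows, 1 held a GATA word and 1 the T-box word: the Scn7a window, 116 bases before the start, and the window of Fgf12 start 4, 176 bases before it. The windows of Scn10a and Scn4b held neither. The Scn7a window is shown as the member window with a GATA match, in capitals and read from the opposite strand, for a gene whose level was not called different. It reads 5′ to 3′ on the minus strand and leaves out 4 bases that are annotated exon.
Scn7a, chr2:66784915-66785160: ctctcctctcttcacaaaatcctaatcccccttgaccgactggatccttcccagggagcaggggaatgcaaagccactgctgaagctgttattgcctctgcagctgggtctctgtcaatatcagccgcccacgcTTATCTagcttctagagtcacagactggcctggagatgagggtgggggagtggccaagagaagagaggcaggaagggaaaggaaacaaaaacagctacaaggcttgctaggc

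Among the pore-forming subunits, Scn10a fell 10.7-fold in atria overexpressing FOG2. Scn4a had its lowest values in the overexpression libraries but did not pass the test, and Scn7a did not pass it either, with overlapping groups. Scn10a encodes a channel best known from pain-sensing neurons. Its wild type libraries held 12.03, 10.01 and 11.7 CPM in replicates 1 to 3, and the overexpression libraries 0.665, 1.59, 1.04 and 0.930 CPM in replicates 1 to 4. Every overexpression library was far below every wild type library, and the values rest on 267 counts over the wild type libraries and 31 over the overexpression libraries. On the log2 scale the change was -3.42 ± 0.28 (SE), with a Benjamini-Hochberg adjusted p of 2.39e-04 in the quasi-likelihood test of edgeR. Scn10a passed the filter on low counts through the wild type libraries alone, so its fold change is given as a description. With no filter its edgeR adjusted p was 1.12e-05, and over 18 alternatives of the fit the adjusted p ranged from 1.03e-17 to 0.00485. In whole atria, fewer cells of a type and less RNA per cell cannot be told apart, here and for the other members.

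Scn4a encodes the main sodium channel of skeletal muscle. It had 41.1, 53.3 and 40.2 CPM in the wild type libraries and 15.6, 26.5, 32.5 and 28.4 CPM in overexpression replicates 1 to 4. The groups did not overlap, and replicate 1 was the lowest. The log2 fold change was -0.81 ± 0.23 (95% interval -1.32 to -0.30), with an unadjusted p of 0.00616 and an adjusted p of 0.0843 (edgeR). It was called with DESeq2 (adjusted p = 0.0202) and, in edgeR, without overexpression replicate 1 (log2 fold change -0.62, adjusted p = 0.0168), and over 18 alternatives the adjusted p ranged from 0.0168 to 0.300. Skeletal muscle markers summed to 1261 to 1910 CPM in wild type against 1009 to 1334 CPM in overexpression, most of it from Ckm, which heart muscle also expresses. Myod1 was at 0 in every library, and 0 of the 6 skeletal markers tested passed the test.

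Scn7a encodes a channel protein known as a sensor of extracellular sodium, found in glia and other supporting cells. Wild type libraries held 214, 249 and 218 CPM and overexpression libraries 177, 301, 237 and 292 CPM. The groups overlapped, with overexpression replicate 1 the lowest of all 7. The log2 fold change was 0.15 ± 0.18, and its 95% interval, from -0.25 to 0.55, allows between 0.840 and 1.46 times the wild type level. Beside it, 1 of the 7 Schwann cell markers tested was called higher, Mbp (0.47 ± 0.11, edgeR adjusted p = 0.0432), and 0 lower. Over all tested genes, 1.55% were called higher. The summed Schwann markers came to 107 to 131 CPM in wild type against 126 to 177 CPM in overexpression. The part of these cells in the Scn7a level was not tested.

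**Figure D1:**
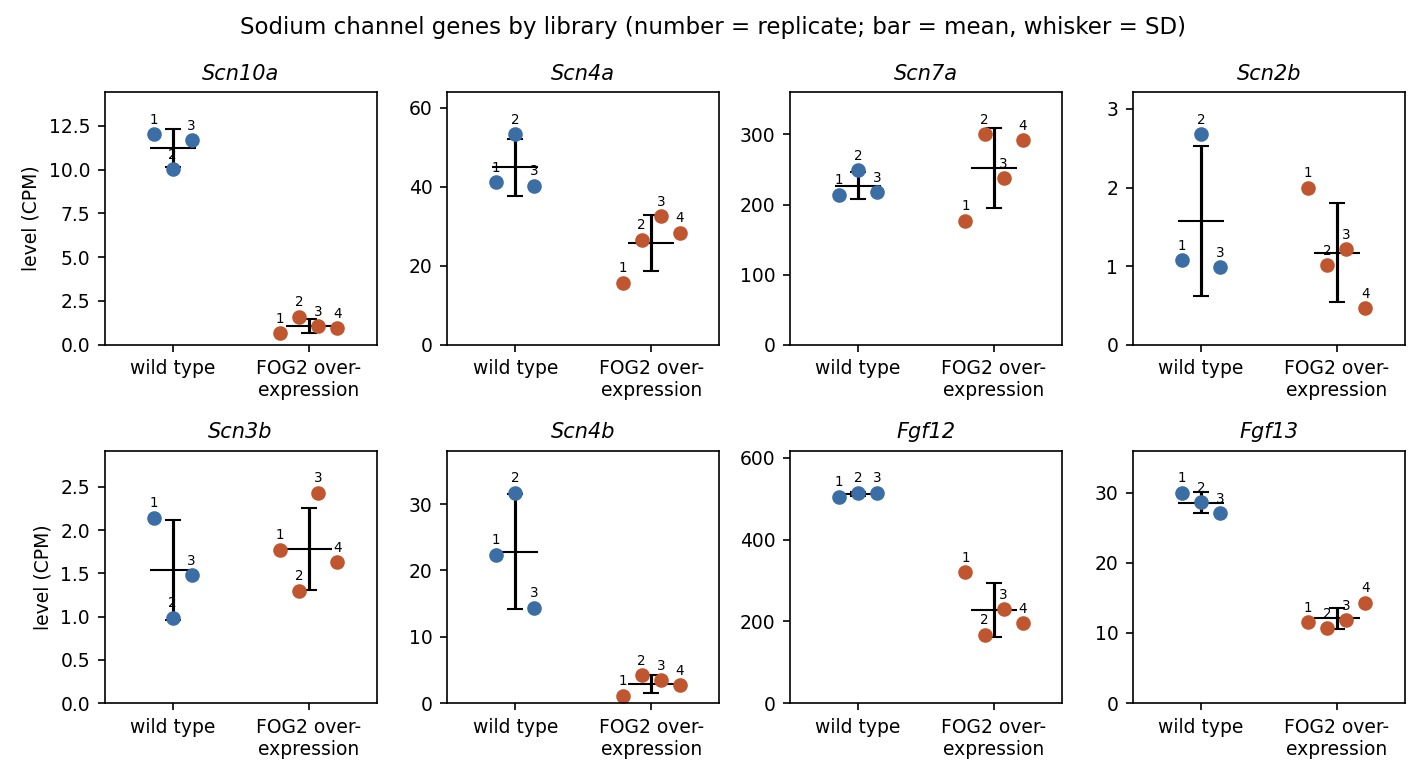
Level of each of the 8 genes in CPM (vertical axes, linear, each starting at 0) in the 3 wild type libraries (blue) and the 4 FOG2 overexpression libraries (orange). Points carry replicate numbers, horizontal bars are group means and whiskers are SD; in Scn10a, Scn4a, Scn4b, Fgf12 and Fgf13 every orange point lies below every blue point.

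Of the beta subunits, Scn4b fell 8.15-fold, and Scn2b and Scn3b, both with few counts, were not called. Scn4b encodes a subunit that, like the product of Scn2b, is tied to the pore subunit by a disulfide bond. Wild type libraries held 22.4, 31.7 and 14.4 CPM, and the overexpression libraries 1.11, 4.18, 3.47 and 2.67 CPM. The groups were far apart although the wild type libraries differed from each other, and overexpression replicate 1 was again the lowest. The log2 fold change was -3.03 ± 0.40 (edgeR adjusted p = 0.00388).

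Scn2b, the neighbour of Scn4b on chromosome 9, had 1.07, 2.68 and 0.984 CPM in wild type against 1.996, 1.009, 1.22 and 0.465 CPM in overexpression. These rest on 4 to 19 counts per library, and the groups overlapped. Its log2 fold change of -0.40 ± 0.54 had an interval of -1.62 to 0.83, and the sign turned (0.19) without wild type replicate 2. Scn3b, whose product binds the pore without a disulfide bond, had 2.14, 0.987 and 1.48 CPM in wild type against 1.77, 1.298, 2.43 and 1.63 CPM in overexpression. The groups overlapped at 7 to 18 counts per library, and the log2 fold change was 0.19 ± 0.37 (interval -0.65 to 1.02), or -0.04 without wild type replicate 2. The 95% intervals allow 0.325 to 1.78 times the wild type level for Scn2b and 0.639 to 2.03 times for Scn3b.

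Scn4b was a smaller part of the transcripts of these 3 beta subunit genes in every overexpression library than in any wild type library. The 3 genes do not cover the whole beta subunit family. Per length of annotated exon, Scn4b made up 87.8%, 89.4% and 85.7% of the 3 genes' counts in the wild type libraries and 22.8%, 64.9%, 49.7% and 57.4% in overexpression replicates 1 to 4. This share needs no scaling between libraries. Its mean was 87.6% ± 1.85 (SD, n = 3) against 48.7% ± 18.3 (SD, n = 4), with no overlap (exact permutation test, two-sided, p = 0.0571, the smallest that 4 libraries against 3 allow; adjusted over 4 shares, p = 0.0762). Scn3b made up 6.08% ± 3.07 in wild type and 28.8% ± 7.0 in overexpression, and Scn2b 6.28% ± 1.79 and 22.5% ± 14.7. The Scn2b share was 43.9% in overexpression replicate 1 against 10.7% to 18.6% in the other overexpression libraries, and its difference of 16.2 percentage points between groups was 9.07 without that library. The shares in overexpression rest on 41 to 45 counts per library over the 3 genes, against 137 to 251 in wild type. Scn4b had already been called lower, and a smaller share of 1 gene raises those of the others. The shares are therefore a description and no separate test, and neither Scn2b nor Scn3b was called higher.

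**Figure D2:**
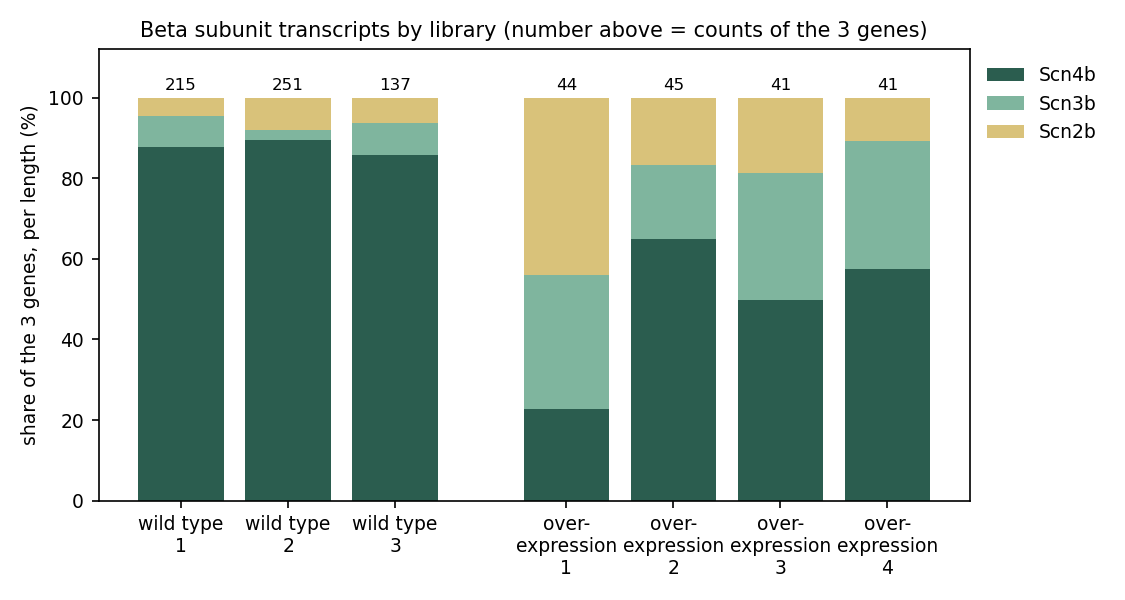
Share of Scn4b, Scn3b and Scn2b among the counts of these 3 genes divided by exon length (vertical axis, %), for each library (bars), with the counts of the 3 genes above each bar. Scn4b is at 85.7% to 89.4% in the wild type libraries and at 22.8% to 64.9% in the overexpression libraries.

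Both members that encode channel-binding growth factor homologues were lower, Fgf12 2.24-fold and Fgf13 2.36-fold. Their relatives outside the members, Fgf11 and Fgf14, were not called, with log2 fold changes of -0.46 and 0.57. Fgf12 was the most abundant member, with 505, 515 and 514 CPM in the wild type libraries and 319.9, 168, 230.2 and 196 CPM in overexpression replicates 1 to 4. The wild type libraries were close together and the groups did not overlap, with overexpression replicate 1 the nearest to wild type. Its log2 fold change was -1.16 ± 0.20 (edgeR adjusted p = 0.0112), but leaving out wild type replicate 2 gave an adjusted p of 0.0543 at the same log2 fold change. Fgf13, an X-linked gene reported as the main member of its family in mouse ventricle, had 30.01, 28.6 and 27.1 CPM in wild type against 11.5, 10.7, 11.8 and 14.3 CPM in overexpression. The spread within each group was small against the gap between them. Its log2 fold change was -1.24 ± 0.13 (edgeR adjusted p = 8.94e-04).

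Per length, Fgf13 made up 7.94% ± 0.444 (SD, n = 3) of the Fgf12 and Fgf13 counts in wild type and 7.92% ± 2.10 (SD, n = 4) in overexpression (exact permutation test, two-sided, p = 0.971, adjusted over 4 shares 0.971). The overexpression libraries spread more widely, from 5.27% in replicate 1 to 10.1% in replicate 4, and enclosed the wild type values.

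As a list, 4 of the 8 members were called lower (Scn10a, Scn4b, Fgf12 and Fgf13) and 0 higher, where 3.29% of all tested genes were called lower and 1.55% higher. In 5 of the 8, the 4 just named and Scn4a, every overexpression library lay below every wild type library, which was so in 10.8% of all tested genes. The median log2 fold change of the members was -0.98 against 0.02 over all tested genes. The count of lower members was 3 without wild type replicate 2, which took out Fgf12, and 5 without overexpression replicate 1 or with DESeq2, which added Scn4a. Scn10a passed the filter on low counts through the wild type libraries alone, and with no filter 4 members were called lower.

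The fitted log2 fold changes of the called members lay in separate ranges. The 95% intervals of Scn10a (-4.05 to -2.79) and Scn4b (-3.94 to -2.12) do not reach those of Fgf12 (-1.61 to -0.72) and Fgf13 (-1.53 to -0.94). Within libraries, the ratio of Scn10a to Fgf13 counts was 0.350 to 0.432 in wild type and 0.0577 to 0.149 in overexpression, and that of Scn4b to Fgf13 was 0.532 to 1.11 and 0.0962 to 0.392. Neither ratio overlapped between groups (exact permutation tests on log2 ratios, two-sided, p = 0.0571 each, the smallest possible; adjusted over 3 pairs, p = 0.0857). Scn10a over Scn4b ranged from 0.316 to 0.812 in wild type and from 0.300 to 0.60 in overexpression, which overlap (exact p = 0.457, adjusted 0.457). All 3 pairs were formed from members already called, so the ratios are a description and no separate test of how far each gene fell.

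**Figure D3:**
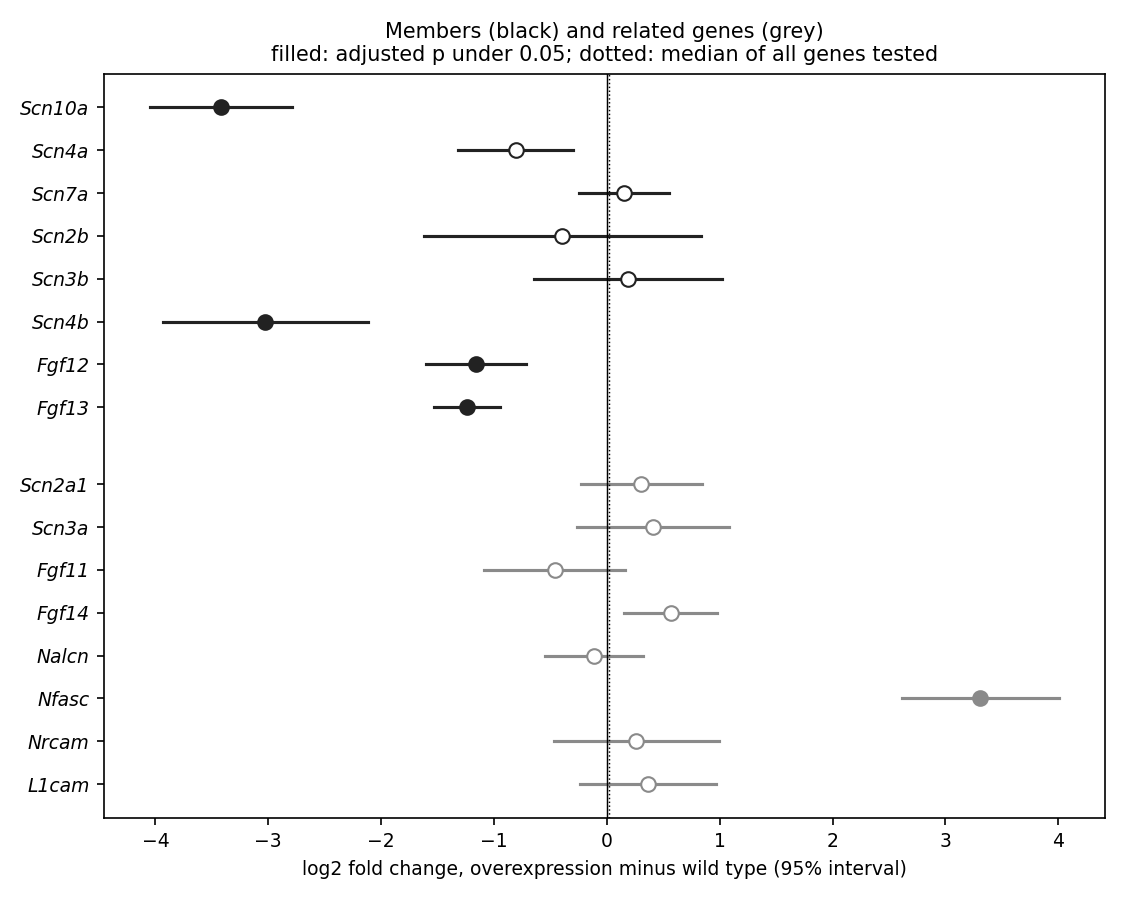
Log2 fold change, overexpression minus wild type (horizontal axis), with its 95% interval for the 8 members (black) and for 8 tested genes of related lists (grey). Filled points have an adjusted p under 0.05; Scn10a and Scn4b lie near -3.42 and -3.03, and Nfasc at 3.31.

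Levels per kilobase of annotated exon put the members in an order that changed between the groups. In wild type atria, Fgf12 was highest at 82.5 ± 0.869 CPM per kilobase (SD, n = 3), followed by Scn7a at 30.9 ± 2.64. Fgf13 (7.11 ± 0.367), Scn4a (6.37 ± 1.04) and Scn4b (4.58 ± 1.74) came next, neighbours whose ranges overlapped. Scn10a stood at 1.41 ± 0.135, above Scn2b (0.339 ± 0.205) and Scn3b (0.281 ± 0.106), which overlapped. In overexpression atria, Fgf12 at 36.8 ± 10.7 and Scn7a at 34.3 ± 7.77 (SD, n = 4) overlapped. Scn4a (3.66 ± 1.02) and Fgf13 (3.01 ± 0.387) overlapped as well. Scn4b (0.574 ± 0.265), Scn3b (0.326 ± 0.0873) and Scn2b (0.252 ± 0.136) overlapped in turn, and Scn10a was lowest at 0.133 ± 0.0486, overlapping the range of Scn2b. Exon lengths are those of all annotated transcripts of a gene together, so they can overstate the length of the transcripts present.

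Other genes of the channel complexes are given beside the shares called over all tested genes, 3.29% lower and 1.55% higher. Of a list of 6 further pore subunit genes, which does not cover the whole family, 2 passed the filter and 0 were called: Scn2a1 had a log2 fold change of 0.31 ± 0.24 and Scn3a of 0.41 ± 0.30. Scn9a had 0 counts in every library, and Scn1a, Scn8a and Scn11a had 0 to 5 counts per library. Fgf14, of the same family as Fgf12, was at 13.9 ± 1.12 CPM (SD, n = 3) in wild type against 20.7 ± 4.19 CPM (SD, n = 4) in overexpression (0.57 ± 0.18, edgeR adjusted p = 0.126), and Fgf11, its relative, had a log2 fold change of -0.46 ± 0.28 (edgeR adjusted p = 0.405).

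Of 26 genes that anchor, traffic or regulate sodium channels, 24 were tested, 1 was called lower and 0 higher, a count near the 3.29% of all tested genes called lower, and the median log2 fold change was 0.05. The gene called was Camk2d, a calcium-dependent kinase that phosphorylates the channel, at 266 ± 15.7 CPM (SD, n = 3) in wild type and 189 ± 21.97 (SD, n = 4) in overexpression (-0.49 ± 0.11, edgeR adjusted p = 0.0413). Cask, a scaffold protein, had a log2 fold change of 0.32 ± 0.08 (adjusted p = 0.0702) and Sntb1, a syntrophin, of 0.70 ± 0.25 (adjusted p = 0.162). Sptbn4, a spectrin of the axon initial segment, did not pass the filter, with 29 counts over the wild type and 8 over the overexpression libraries; it was singled out after its values were seen.

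Among 5 cell adhesion partners of sodium channels, 3 were tested, 1 was called higher and 0 lower. The gene called was Nfasc, neurofascin, which gathers channels at axon initial segments and nodes. It had 0.595, 0.564 and 0.369 CPM in the wild type libraries and 5.21, 4.76, 6.08 and 4.76 CPM in overexpression replicates 1 to 4, from 3 to 5 and 33 to 47 counts per library. Nfasc passed the filter on low counts through the overexpression libraries alone, so its log2 fold change of 3.31 ± 0.31 is given as a description. Nrcam and L1cam stood at 0.26 ± 0.32 and 0.36 ± 0.27. Of the sodium leak channel genes, 1 of the 4 in the table was tested, Nalcn, at -0.12 ± 0.19 (edgeR adjusted p = 0.787).

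Genes whose log2 CPM closely followed a called member over the 7 libraries were ranked by Pearson correlation among genes with a mean of at least 5 CPM. Among the 3 highest were, for Scn10a, Adamts6 (r = 0.996), Sln (0.994) and Ptgfr (0.993), and for Scn4b Rnf114 (0.996) and Ntn1 (0.990). For Fgf12 these were 6330416G13Rik (0.996), Pex3 (0.994) and Myl7 (0.989), and for Fgf13 they included Ogdhl (0.994) and Rragd (0.993). Between members, Scn10a correlated with Scn4b at r = 0.957 and with Fgf13 at 0.953. All of these points share the same libraries and the same split into groups, so the values are a description only.

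Some markers of heart muscle cells also differed. Of 10 cardiomyocyte markers, 3 were called lower (Myl7, Sln and Ryr2), 0 were called higher and 7 were not called. Over all tested genes, 3.29% were called lower. The 10 markers had a median log2 fold change of -0.37. Their summed level was 85791 to 99040 CPM in wild type against 54733 to 72869 CPM in overexpression. Scaling the libraries to the summed counts of 20 sarcomere genes expresses each member per unit of sarcomere transcript. In wild type, Ttn (mean 74213 CPM) and Myh6 (mean 27575 CPM) made up most of that sum, 139655 to 166141 CPM. Of these 20 genes, 6 were themselves called lower and 0 higher. On that scale, Scn10a was at -2.98, Scn4b at -2.56, Fgf13 at -0.81 and Fgf12 at -0.72, all still called lower (edgeR adjusted p = 3.95e-05, 9.86e-04, 0.0142 and 0.0314). Scn4a was at -0.37 and not called, and Scn7a at 0.60 was called higher (adjusted p = 0.0419). These values are to be read against a median over all genes of 0.46 on that scale.

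Of 14 neuronal markers, 4 (Snap25, Chat, Slc18a3 and Th) were at 0 in every library, and the sum was 15.2 to 23.4 CPM in wild type against 15.7 to 25.2 CPM in overexpression. Of the 4 tested markers, 0 were called. Most of the sum came from Ret, with a mean of 8.01 CPM in wild type against 11.4 CPM in overexpression (log2 fold change 0.49 ± 0.27), and from Dbh, with 6.02 against 3.72 CPM (-0.71 ± 0.42), 14 to 97 counts per library. For the other cell types, summed marker levels in wild type and overexpression were 6918 to 10335 and 9648 to 16007 CPM for fibroblasts (0 of 8 called). They were 466 to 550.4 and 577 to 731 CPM for smooth muscle cells and pericytes (2 of 9 higher). Over all tested genes, 1.55% were called higher. The summed levels were 1116 to 1295 and 971 to 1296 CPM for endothelium (0 of 6 called) and 351 to 516 and 447 to 629.8 CPM for macrophages (0 of 6). Ventricular markers summed to 1180 to 1498 and 832 to 1249.7 CPM, and 0 of 4 tested were called. Nearly all of that sum was Myh7. Myl2, the main ventricular light chain, was at 45.3 CPM (314 counts) in overexpression replicate 2 and at 0 to 1.39 CPM in every other library, and without that replicate 4 members were still called lower. The part of these cells in the members' levels was not tested.

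**Figure D4:**
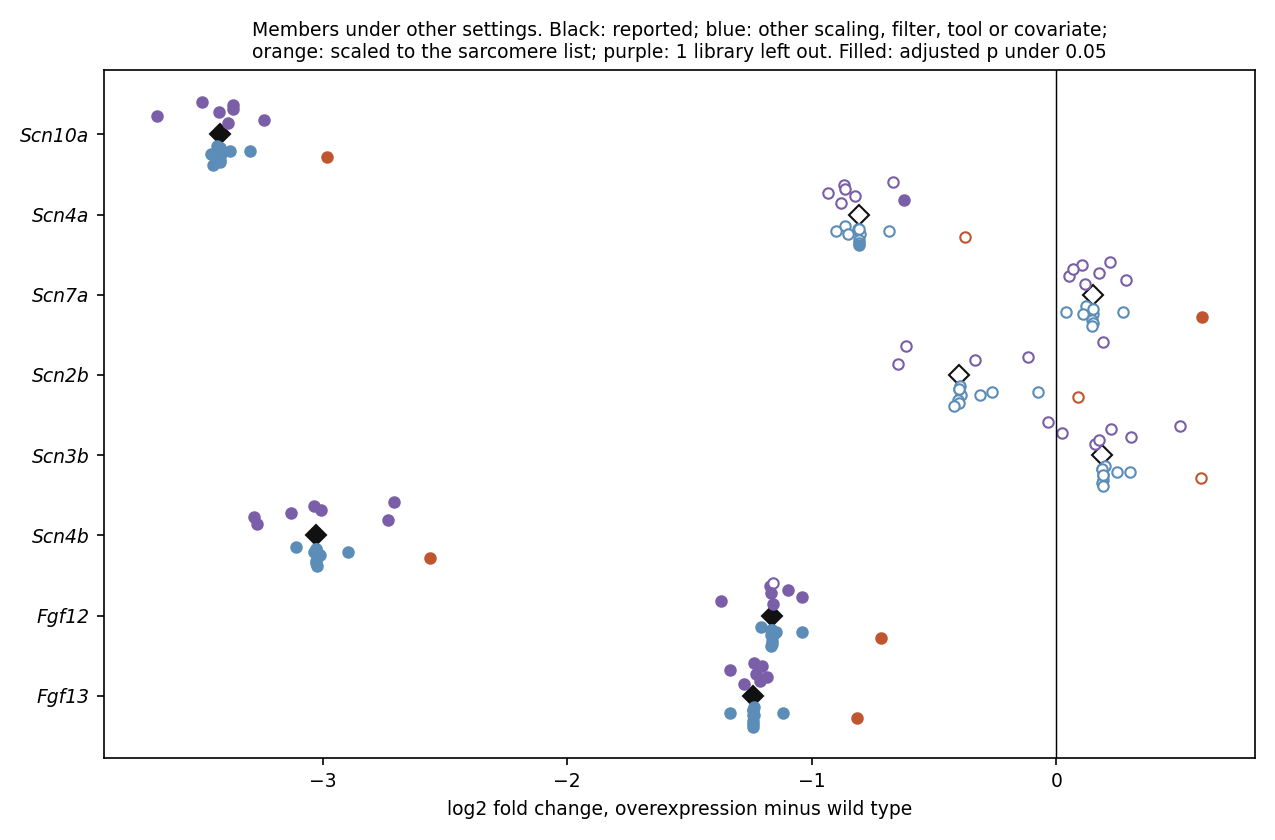
Log2 fold change of each member (horizontal axis) as reported (black diamonds) and under other scalings, filters, tools or covariates (blue), scaled to the sarcomere list (orange) and with 1 library left out (purple); filled points have an adjusted p under 0.05. Scn10a stays between -3.68 and -2.98 and Scn4b between -3.28 and -2.56, while points of Scn2b and Scn3b lie on both sides of 0.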

How the data were processed

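The deposited table holds unnormalized gene counts, all whole numbers, of 7 mouse left atrial libraries. STAR, HTSeq 0.6.0, DESeq2 and the build mm10 are named, without roles, per the submitters' processing notes. The sources used here give neither strand setting nor annotation. One label names polyA selection and the protocol removal of ribosomal RNA. Rows naming no gene (23.4% to 30.5% of reads without a feature, 37.1% to 43.4% with several alignments, 0.101% to 0.254% ambiguous) were left out.

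Low counts were removed by filterByExpr (group-wise, count 10, total 15). Libraries were TMM-scaled and compared in edgeR 4.0.16 (R 4.3.3) by its two-sided quasi-likelihood test, robust and without covariates. Adjusted p-values (Benjamini-Hochberg, called under 0.05) cover 13295 genes. CPM used TMM-scaled totals; for log2 CPM the prior was 2. Standard errors were derived from F and the fold change. Shares and ratios were compared with scipy 1.17.1. The fit was tested on simulated data. Members, lists and tests were chosen with earlier results of these data known. Named genes were the members, up to 4 genes of each related list by p, and the 3 genes most correlated with each called member. A few of these are not reported here. Alternatives used DESeq2 1.42.0, limma 3.58.1, other scalings and filters, covariates and each library left out. Promoters came from RefSeq (GRCm38.p6), positions and lengths from GENCODE M21.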

Additional observations from a re-analysis of the deposited data

How the results depend on the processing

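The 4 called members kept their direction under all 18 alternatives, with log2 fold changes of -3.68 to -2.98 for Scn10a, -3.28 to -2.56 for Scn4b, -1.37 to -0.72 for Fgf12 and -1.33 to -0.81 for Fgf13. They stayed called except for Fgf12 without wild type replicate 2. The count of members called lower ranged from 3 to 5 with 1 library left out, and that of members called higher was 0 (0 at an unadjusted p under 0.05, and 0 with DESeq2 and limma-voom), becoming 1 (Scn7a) on the sarcomere scale. The sign of Scn2b turned on that scale (0.0876) and without wild type replicate 2; with 1 library left out it ranged from -0.65 to 0.19, and Scn3b from -0.0352 to 0.51, negative without wild type replicate 2. Scn2b did not pass the filter without overexpression replicates 1 or 3. The Fgf13 share differed between groups by -0.02 percentage points, or by -0.75 to 0.87 with 1 library left out, turning sign without wild type replicate 1 (0.213) and overexpression replicates 1 (0.865) and 3 (0.176); the cause was not tested.

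Over all genes, 206 were called higher and 438 lower. These became 444 and 294 with library totals only (median over all genes 0.14), 2862 and 173 scaled to the sarcomere list, 437 and 673 with DESeq2, and 75 to 493 and 181 to 658 with 1 library left out. With the replicate number as a block (replicate block) they were 129 and 253, and 4 members were still lower. Same-numbered libraries deviated together at r = 0.0789, 0.0136 and 0.0720. Wild type replicates 1 and 3 correlated best with the overexpression library of their own number. Wild type replicate 2 correlated best with overexpression replicate 4 (r = 0.152). The replicate numbers follow the alphabetical order of the library names, whose own numbers are not shared between the groups. Whether equal replicate numbers mark a shared batch was not tested. The depth behind Scn2b and Scn3b was 4 to 19 counts per library.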
